A study of Mus musculus with 17 samples.

Results

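The eukaryotic translation initiation factor genes were described in macrophages sorted from the kidneys of lupus-prone mice before nephritis, during nephritis and after treatment had brought remission. Members were all genes whose symbol starts with Eif in GEO's annotation of the array and that had a probe set in the deposited table, apart from 1 gene that the rule leaves out. Members were thus chosen by symbol and not by level, but the family was picked with the differences between these arrays known, so its counts are descriptions. This gave 44 of the 15780 genes with a symbol. Some central subunit genes were not among them, namely Eif1, Eif2s1, Eif2s3x, Eif4a2 and Eif4g1, so eIF1, eIF2 and eIF4F are covered only in part. All 44 were found by Entrez identifier in the RefSeq gene table under the same symbol. Each gene had 1 probe set.

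Initiation factors bring a ribosome to the start codon of an mRNA. eIF2 carries the initiator tRNA to the small ribosomal subunit, and eIF2B recharges eIF2 with GTP after each round. Kinases that phosphorylate eIF2 turn it into an inhibitor of eIF2B and so lower protein synthesis under stress. eIF4F (the cap-binding protein eIF4E, the scaffold eIF4G and the helicase eIF4A) recruits the mRNA, and eIF4E-binding proteins block this step until the kinase mTORC1 phosphorylates them. eIF3 holds the small subunit complex together, eIF1 and eIF1A guide scanning, eIF5 and eIF5B license the start and the joining of the large subunit, and eIF6 keeps the large subunit apart until it is ready. In macrophages, activation, phagocytosis and secretion all draw on regulated translation.

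The cells were F4/80hi, a surface phenotype of kidney macrophages, and came from NZB/W mice, a hybrid strain that develops lupus nephritis spontaneously. The 6 prenephritic arrays came from mice aged 8 to 16 weeks, the 7 nephritic arrays from mice 2 to 6 weeks past the onset of proteinuria but before terminal renal failure, and the 4 remission arrays from mice 3 to 4 weeks after complete remission. Remission had been induced with 1 dose of cyclophosphamide (a cytotoxic drug), 6 doses of CTLA4Ig (a decoy receptor that keeps T cells from being costimulated) and anti-CD154 antibody (which blocks CD40 ligand), so remission and drug exposure cannot be told apart. The ages of nephritic and remission mice are not stated in the labels and age cannot be told apart from disease. Whether arrays hold RNA from different mice or from pooled mice is not stated either, so the p-values reflect the spread among these arrays, which may be technical.

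The values are log2 expression from RMA (robust multi-array average), and differences are log2 differences ± standard error from a limma model of all 17 arrays. A gene was called when its p-value, adjusted by the Benjamini-Hochberg method over all 15780 genes, lay below 0.05. Array medians lay between 7.49 and 7.68, and correlations between arrays over all genes between 0.942 and 0.994. The 6 macrophage markers examined (Adgre1, Csf1r, Cd68, Mrc1, Cx3cr1 and Ptprc) had much the same mean level in each group, 12.66 ± 0.11 before nephritis (SD, n = 6), 12.64 ± 0.09 during it (SD, n = 7) and 12.65 ± 0.11 after remission (SD, n = 4), and 0 of 6 were called in any comparison. Of the initiation factor genes, 43 had a highest group mean above 5.02, the lower quartile of all probe sets. The exception was Eif2s3y, the Y-linked copy of the eIF2 gamma subunit gene, which ranged from 3.04 to 3.37 over the 3 groups.

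Initiation factor genes were somewhat higher in nephritic macrophages than before nephritis and lower again in remission, each by well under 1.5-fold. In nephritic minus prenephritic arrays, 7 of the 44 rose (15.9%) and 1 fell, where 6.74% of all genes were called higher and 5.32% lower. In remission minus nephritic arrays 12 of the 44 fell (27.3%) and 0 rose, where 10.0% of all genes were called lower and 3.27% higher. Of the 12102 genes with a highest group mean of at least 5.02, tested by themselves, 1085 were called higher and 857 lower in nephritis. In remission minus nephritic arrays 614 of them were called higher and 1673 lower, and each of these shares is larger than that over all genes. At an unadjusted p below 0.05, 17 and 20 members passed in these comparisons. The share of all genes below that cut was not counted, here or where the cut is used further on. The median member stood at 0.08 in the first comparison and at −0.13 in the second, against −0.02 and −0.03 for all genes. Of the members, 32 lay above 0 in the first (72.7%, against 45.7% of all genes) and 39 below 0 in the second (88.6%, against 55.8%). The sign of both member medians was the same when the quantile normalization was repeated (0.04 and −0.10) and when array medians were subtracted (0.09 and −0.14). Both comparisons use the same nephritic arrays, so a nephritic array that is high pushes members up in the first and down in the second. In bulk RNA a change in the mix of sorted cells and a change in RNA per cell cannot be told apart.

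**Figure D1:**
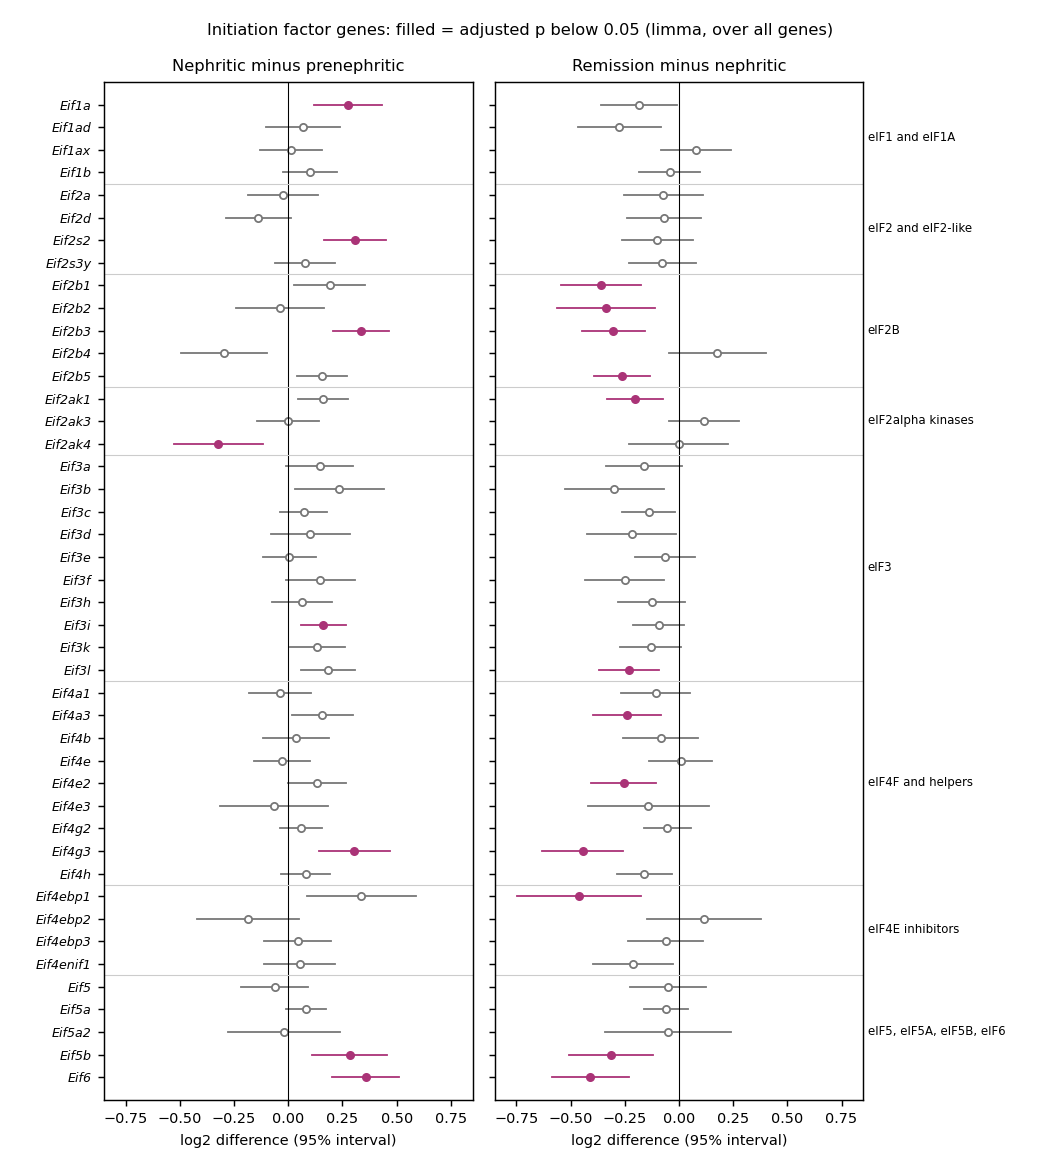
Log2 difference of each of the 44 initiation factor genes, ordered by role, with its 95% interval from limma; filled points have an adjusted p below 0.05 over all genes. In nephritic minus prenephritic arrays (left) 7 filled points lie right of 0 and 1 lies left, and in remission minus nephritic arrays (right) all 12 filled points lie left.

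**Figure D2:**
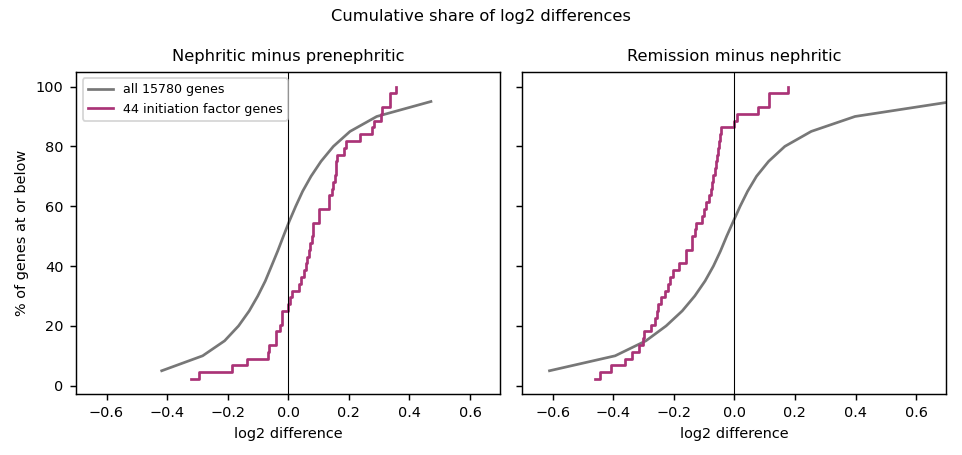
Cumulative share of the log2 differences of the 44 initiation factor genes (purple steps) and of all 15780 genes (grey, drawn from the 5th to the 95th percentile). The members' median is 0.08 in nephritic minus prenephritic and −0.13 in remission minus nephritic arrays, and the members spread over a narrower range than all genes.

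The members that passed in both comparisons were 4, Eif2b3, Eif4g3, Eif5b and Eif6. Eif6 (Entrez 16418), the gene of the factor that holds the large ribosomal subunit back and is needed to make it, ran from 10.72 to 10.93 (median 10.85) in the 6 prenephritic arrays and from 11.00 to 11.46 (median 11.18) in the 7 nephritic arrays. Its 4 remission arrays read 10.72, 10.67, 10.79 and 10.96. Every nephritic array thus lay above every prenephritic and every remission array, with nephritic replicate 1 the highest. Eif6 rose by 0.36 ± 0.07 in nephritis (1.28-fold, adjusted p = 0.0042) and was lower by 0.41 ± 0.08 in remission than in nephritis (1.33-fold, adjusted p = 0.0042).

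Eif5b (Entrez 226982), the gene of the GTPase that joins the ribosomal subunits, ran from 9.23 to 9.68 (median 9.36) in prenephritic and from 9.54 to 9.88 (median 9.69) in nephritic arrays. In remission it stood at 9.25, 9.30, 9.51 and 9.45, below every nephritic array, whereas prenephritic and nephritic arrays overlapped. It rose by 0.28 ± 0.08 (1.22-fold, adjusted p = 0.032) and was lower by 0.31 ± 0.09 in remission (1.24-fold, adjusted p = 0.033). The first call ended on removal of prenephritic replicate 1, 2, 5 or 6 or nephritic replicate 1, 3, 5 or 7, each by itself (0.051 to 0.076 as adjusted p), and the second on removal of nephritic replicate 1, 3 or 7 or remission replicate 1 or 2 (0.055 to 0.12). Both Eif6 calls passed whichever array was left out, with adjusted p up to 0.012 and 0.024. Eif5, the gene of the factor that triggers GTP hydrolysis on eIF2, was not called (−0.06 ± 0.07 and −0.05 ± 0.08). Eif5a, which encodes the hypusine-carrying factor that helps peptide bond formation, differed by 0.08 ± 0.04 in nephritis, with a 95% interval from −0.01 to 0.17, and its paralog Eif5a2 by −0.02 ± 0.12. Neither was called in any comparison.

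Of the 5 subunit genes of eIF2B, Eif2b3 alone was called in nephritis. The catalytic part of eIF2B is made of the gamma subunit (Eif2b3) and the epsilon subunit (Eif2b5), and the regulatory part, which senses phosphorylated eIF2, of the alpha, beta and delta subunits (Eif2b1, Eif2b2 and Eif2b4). Eif2b3 (Entrez 108067) ran from 8.93 to 9.17 (median 9.05) in prenephritic and from 9.24 to 9.53 (median 9.39) in nephritic arrays, and read 8.92, 9.07, 9.26 and 9.12 in remission. All nephritic arrays lay above all prenephritic arrays, and 1 remission array, replicate 3, lay just within the nephritic range. Eif2b3 rose by 0.33 ± 0.06 (1.26-fold, adjusted p = 0.0018, the smallest of any member in this comparison) and was lower by 0.30 ± 0.07 in remission (1.23-fold, adjusted p = 0.0090). Both calls passed whichever array was left out (adjusted p up to 0.0056 and 0.049).

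In remission minus nephritic arrays 4 of the 5 eIF2B genes fell (80%, against 10.0% of all genes). This was the highest share of any role, but every role holds few genes. Eif2b5 ran from 9.76 to 9.94 (median 9.91) in prenephritic and from 9.92 to 10.23 (median 10.01) in nephritic arrays, and its remission arrays, at 9.75, 9.78, 9.81 and 9.77, lay close together below every nephritic array. It was 0.26 ± 0.06 lower in remission (adjusted p = 0.010), a call that passed whichever array was left out (adjusted p up to 0.041), and stood at 0.15 ± 0.05 in nephritis (adjusted p = 0.079). Eif2b1 was at 8.50, 8.36, 8.47 and 8.41 in remission, again below every nephritic array (8.64 to 8.91, median 8.80), while prenephritic arrays spread from 8.22 to 8.78 (median 8.65). It fell by 0.36 ± 0.09 (adjusted p = 0.013, and 0.054 without remission replicate 2). Eif2b2 was at 8.48, 8.47, 8.49 and 8.73 in remission against 8.57 to 9.13 (median 8.87) in nephritic arrays, so the groups overlapped through remission replicate 4. It fell by 0.34 ± 0.11 (adjusted p = 0.048), and this call withstood removal only of prenephritic replicate 5 or 6, nephritic replicate 6 or remission replicate 4, and ended on removal of any other array (0.054 to 0.15).

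Eif2b4 went the other way, without passing. It ran from 9.81 to 10.05 (median 9.93) in prenephritic and from 9.38 to 9.85 (median 9.71) in nephritic arrays and read 9.98, 9.54, 9.68 and 10.02 in remission. Its differences were −0.30 ± 0.09 in nephritis (adjusted p = 0.0503) and 0.18 ± 0.11 in remission (adjusted p = 0.28). The Eif2b3 value minus the Eif2b4 value of the same array ran from −1.13 to −0.75 in prenephritic, from −0.50 to 0.01 in nephritic and from −1.07 to −0.42 in remission arrays. This pair was picked after its values had been seen, so the difference is a description and was not tested.

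Around eIF2 itself, Eif2s2, which encodes the beta subunit, rose in nephritis by 0.31 ± 0.07 (1.24-fold, adjusted p = 0.0065), a call that passed whichever array was left out (adjusted p up to 0.018). It ran from 8.82 to 9.14 (median 8.88) before nephritis and from 9.10 to 9.38 (median 9.21) in nephritis, overlapping through prenephritic replicate 1. Its remission arrays, at 9.14, 9.27, 9.11 and 9.04, lay among the nephritic ones except for the lowest, with a difference of −0.10 ± 0.08 (adjusted p = 0.43). Eif2a and Eif2d, genes of proteins that can deliver tRNA to the ribosome in other ways, were not called (−0.02 ± 0.08 and −0.14 ± 0.07 in nephritis).

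Of the 3 eIF2 kinase genes among the members, 1 was called in nephritis and another in remission minus nephritic arrays, and differences between them were not tested. Eif2ak4 encodes GCN2, which responds to uncharged tRNA when amino acids run short. It fell in nephritis, from 9.44 to 9.86 (median 9.64) in prenephritic arrays to 9.01 to 9.60 (median 9.29) in nephritic arrays, by 0.32 ± 0.10 (1.25-fold, adjusted p = 0.038). In remission it stood at 9.39, 9.37, 9.10 and 9.39, within the nephritic range and below every prenephritic array (−0.32 ± 0.11 against prenephritic arrays, adjusted p = 0.20), where 1.93% of all genes had every remission array below every prenephritic array and 0.393% above, as 1 and 0 of the members did. The nephritic call ended on removal of prenephritic replicate 1, 2, 3 or 5 or nephritic replicate 1, 4, 5 or 7 (0.061 to 0.092 as adjusted p).

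Eif2ak1 encodes HRI, the heme-regulated kinase. Its nephritic arrays lay within a narrow band from 9.39 to 9.47 (median 9.42), prenephritic arrays from 9.14 to 9.46 (median 9.26), and remission arrays at 9.11, 9.25, 9.20 and 9.34, below every nephritic array. It was 0.20 ± 0.06 lower in remission than in nephritis (adjusted p = 0.038) and stood at 0.16 ± 0.05 in nephritis (adjusted p = 0.068). The remission call ended on removal of nephritic replicate 1, 3, 4, 6 or 7 or remission replicate 1, 2 or 3 (0.053 to 0.15 as adjusted p). Eif2ak3, which encodes PERK, the kinase of the endoplasmic reticulum, ran from 7.51 to 7.84 in prenephritic and from 7.61 to 7.82 in nephritic arrays, read 7.68, 7.95, 7.78 and 7.77 in remission and was not called, with a nephritic difference between −0.15 and 0.14 (95% interval).

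Among the 9 measured genes of the cap-binding complex and its helpers, the largest differences were those of Eif4g3. It encodes eIF4GII, a scaffold that links eIF4E to eIF4A and eIF3. Eif4g3 (Entrez 230861) ran from 11.34 to 11.63 (median 11.41) in prenephritic and from 11.57 to 11.99 (median 11.79) in nephritic arrays, and was at 11.31, 11.20, 11.31 and 11.43 in remission. Remission arrays all lay below the nephritic ones, and prenephritic replicate 5 overlapped with nephritic arrays. It rose by 0.31 ± 0.08 (1.24-fold, adjusted p = 0.017) and was lower by 0.44 ± 0.09 in remission (1.36-fold, adjusted p = 0.0035, the smallest of any member there). Both calls passed whichever array was left out (adjusted p up to 0.037 and 0.020). With the cycling marker level of each array as a covariate, the Eif4g3 differences were 0.47 and −0.71 (adjusted p = 0.072 and 0.145). With the B and plasma cell marker level as a covariate they were 0.07 and −0.26 (adjusted p = 0.85 and 0.19). Eif4g2, which encodes DAP5, a related scaffold without an eIF4E site, varied little, with 11.49 to 11.66 in prenephritic, 11.54 to 11.75 in nephritic and 11.55 to 11.59 in remission arrays, and its nephritic difference of 0.06 ± 0.05 was not called.

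Of the cap-binding genes, Eif4e2 alone was called, in remission minus nephritic arrays, and differences between these genes were not tested. Eif4e, the gene of the main cap-binding protein, ran from 9.59 to 9.67 in prenephritic and from 9.44 to 9.72 in nephritic arrays and read 9.43, 9.72, 9.78 and 9.53 in remission. Its 95% intervals ran from −0.16 to 0.10 in nephritis and from −0.14 to 0.15 in remission minus nephritic arrays. Eif4e2 encodes 4EHP, a cap-binding protein that represses translation because it does not bind eIF4G. It ran from 9.18 to 9.45 (median 9.39) in prenephritic and from 9.37 to 9.72 (median 9.48) in nephritic arrays, and its remission arrays, at 9.20, 9.18, 9.22 and 9.36, all lay below the nephritic range. It was lower by 0.26 ± 0.07 in remission (adjusted p = 0.026, and 0.067 to 0.094 on removal of remission replicate 1, 2 or 3). Eif4e3, a further cap-binding paralog, spread over 9.45 to 10.26 in the 17 arrays and was not called (−0.07 ± 0.12 and −0.14 ± 0.13).

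Of the helicase genes, Eif4a3, whose product sits in the exon junction complex on spliced mRNA, was lower in remission by 0.24 ± 0.07 (adjusted p = 0.041), with 11.71, 11.62, 11.69 and 11.89 against 11.79 to 12.17 (median 11.92) in nephritic arrays. That call ended on removal of nephritic replicate 1, 3, 4 or 6 or remission replicate 1, 2 or 3 (0.052 to 0.16 as adjusted p). Eif4a1, the gene of the initiation helicase, was not called (−0.04 ± 0.07 and −0.11 ± 0.08), nor were its cofactor genes Eif4b (0.03 ± 0.07 and −0.08 ± 0.08) and Eif4h (0.08 ± 0.05 and −0.16 ± 0.06, adjusted p = 0.38 and 0.088).

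Of the eIF4E inhibitors, Eif4ebp1 (Entrez 13685), the gene of an mTORC1-controlled eIF4E-binding protein, had the largest difference of any member in remission minus nephritic arrays and also some of the widest spreads. Its arrays ran from 9.89 to 10.50 (median 10.25) before nephritis and from 10.23 to 10.89 (median 10.56) in nephritis, and read 10.17, 9.83, 10.09 and 10.33 in remission. All 3 groups overlapped. It was lower by 0.46 ± 0.13 in remission than in nephritis (1.38-fold, adjusted p = 0.032) and stood at 0.34 ± 0.12 in nephritis (adjusted p = 0.079). Removal of nephritic replicate 1, 3, 4 or 7 or remission replicate 1, 2 or 3 ended the remission call (0.051 to 0.15 as adjusted p). Its paralogs differed less, with Eif4ebp2 at −0.19 ± 0.11 and 0.12 ± 0.12 and Eif4ebp3 at 0.04 ± 0.07 and −0.06 ± 0.08 in the same comparisons, none of them called. Whether the paralogs differ from Eif4ebp1 was not tested. Eif4enif1, whose product carries eIF4E into the nucleus, was at 0.05 ± 0.08 and −0.21 ± 0.09 (adjusted p = 0.75 and 0.11).

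All 10 measured eIF3 genes lay above 0 in nephritis, with a median of 0.14, and all 10 below 0 in remission minus nephritic arrays, with a median of −0.15, but only Eif3i passed in the first and only Eif3l in the second. Eif3i, a subunit with a propeller fold, ran from 12.22 to 12.45 (median 12.33) in prenephritic and from 12.40 to 12.61 (median 12.48) in nephritic arrays and rose by 0.16 ± 0.05 (1.12-fold, adjusted p = 0.042). This call withstood removal only of prenephritic replicate 6, nephritic replicate 2 or 5 or remission replicate 4, and ended on removal of any other array (0.052 to 0.10). Eif3l was lower in remission by 0.23 ± 0.07 (1.17-fold, adjusted p = 0.030), with 11.15, 11.13, 11.22 and 11.10 all below the nephritic range of 11.26 to 11.55 (median 11.39). Its call ended on removal of nephritic replicate 1 or 4 or remission replicate 1, 2 or 4 (0.051 to 0.092). The largest eIF3 difference belonged to Eif3b, a core scaffold subunit, at −0.30 ± 0.11 in remission (adjusted p = 0.077). Eif3e and Eif3h were among the flattest, at 0.00 ± 0.06 and 0.06 ± 0.07 in nephritis. Nephritic replicate 1 was the highest of its group in Eif3b, Eif3c, Eif3d, Eif3f, Eif3i, Eif3k and Eif3l.

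Of the scanning factors, Eif1a rose in nephritis, from 10.71 to 11.04 (median 10.76) in prenephritic to 10.94 to 11.32 (median 11.02) in nephritic arrays, by 0.28 ± 0.07 (1.21-fold, adjusted p = 0.022, and 0.053 without prenephritic replicate 5). In remission it read 10.81, 10.99, 10.93 and 10.88, all within the prenephritic range and replicate 2 also within the nephritic range (−0.18 ± 0.08 against nephritic arrays, adjusted p = 0.15). Eif1ax, its X-linked paralog, was not called (0.01 ± 0.07 and 0.08 ± 0.08), nor was Eif1b, the gene of an eIF1 paralog (0.10 ± 0.06 and −0.04 ± 0.07). Near-identical coding sequence may let probes of Eif1a and Eif1ax read both transcripts, and the probe sequences were not used here. Eif1ad, which encodes a protein with an eIF1A domain, had every remission array (8.85, 9.18, 9.17 and 9.22) below every nephritic array (9.24 to 9.56), with a difference of −0.27 ± 0.09 that did not pass (adjusted p = 0.055).

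**Figure D3:**
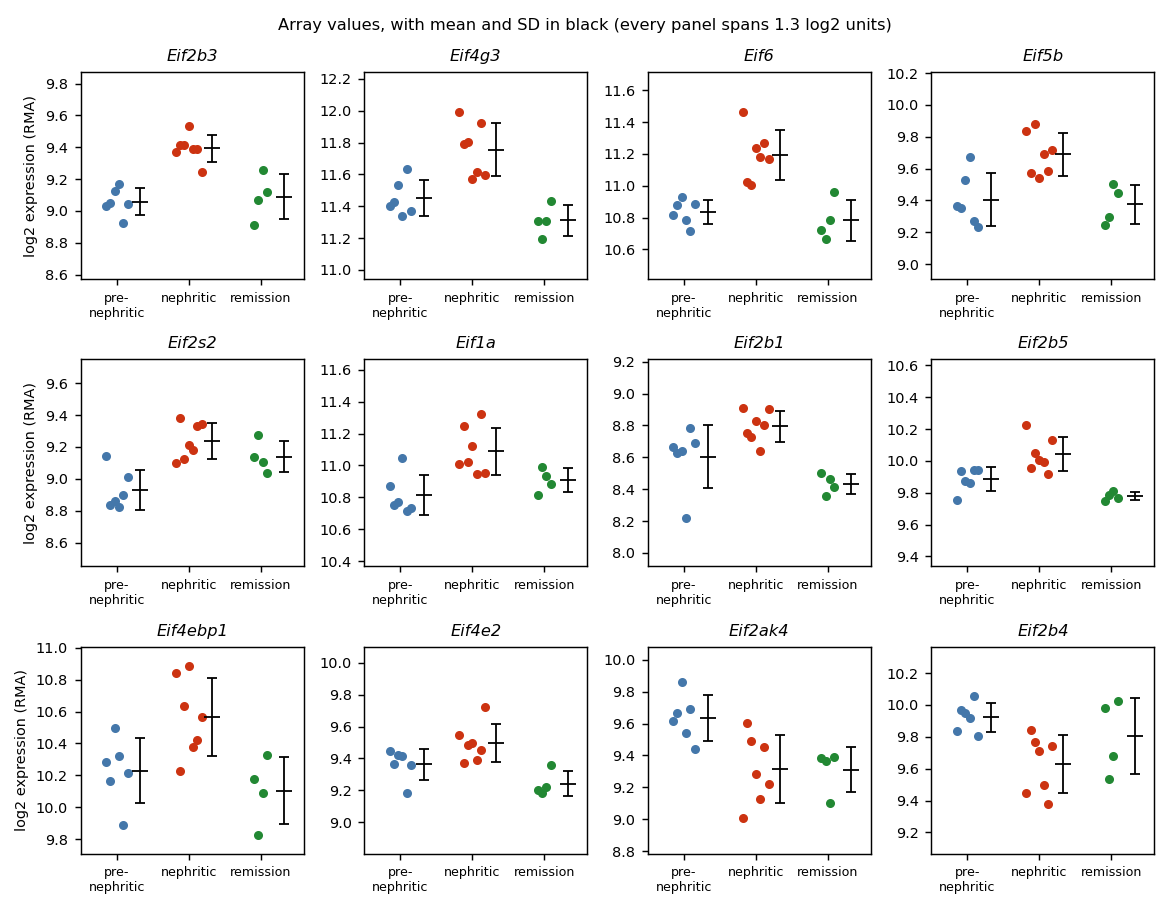
Log2 expression of 12 initiation factor genes in each of the 17 arrays, with the group mean and SD in black; every panel spans the same number of log2 units. Eif6 and Eif2b3 are higher in every nephritic array than in every prenephritic array, and Eif2ak4 and, without passing the test, Eif2b4 are lower in nephritic arrays.

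Across the family, the groups did not overlap for 2 members between prenephritic and nephritic arrays, both higher in nephritis (3.07% of all genes did so) and 0 lower (1.61% of all genes). In 10 members every remission array lay below every nephritic array, which 6.95% of all genes did, and in 0 members above (1.70%). Of these 10, Eif1ad and Eif3c (−0.14 ± 0.06, adjusted p = 0.12) were not called. Standard errors in nephritis lay between 0.05 and 0.10 for the 8 called members and between 0.04 and 0.12 for the other 36, and the largest difference among the members that were not called was 0.34, that of Eif4ebp1.

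**Figure D4:**
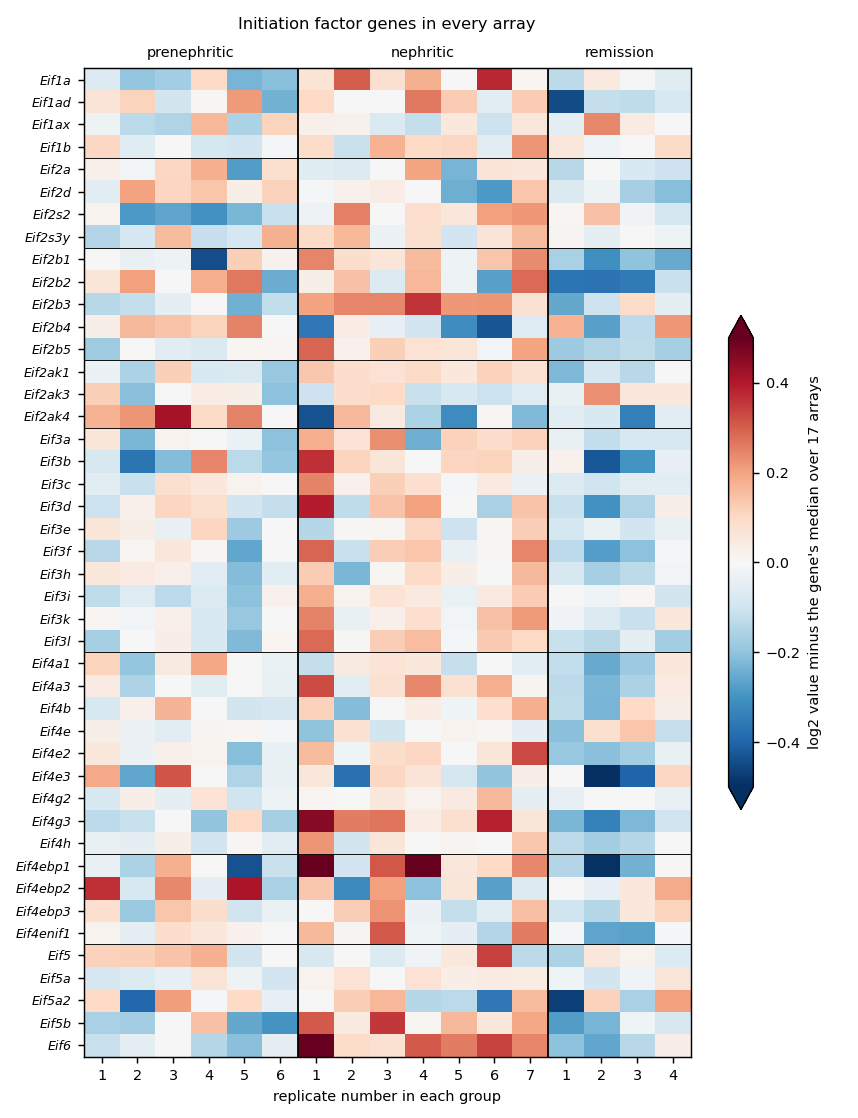
Log2 value of each of the 44 initiation factor genes in each array minus the gene's median over the 17 arrays, with colours cut at 0.5 on either side. Most genes are redder in nephritic arrays apart from replicate 5. Among nephritic arrays the mean over members is highest in replicate 1, and the share of members above their median is largest in replicate 7. Most genes are bluer in remission replicates 1 to 3 than in replicate 4.

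Some arrays carried more of the pattern than others. In the nephritic arrays, 47.7% to 79.5% of members lay above their own median over all arrays, in prenephritic arrays 18.2% to 54.5%, and in remission arrays 13.6% to 34.1%. The count of 7 members that rose in nephritis was 4 without prenephritic replicate 5. The count of 12 that were lower in remission was 6 without nephritic replicate 1, 7 without nephritic replicate 3, and 5, 4 and 7 without remission replicates 1, 2 and 3. Counts over all genes fell on the same removals. The 1064 genes higher in nephritis became 870 without prenephritic replicate 5. The 1584 lower in remission became 1331 and 1328 without nephritic replicates 1 and 3, and 926, 839 and 1162 without remission replicates 1, 2 and 3. Members whose calls passed whichever array was left out were Eif2b3, Eif2s2, Eif4g3 and Eif6 in nephritis and Eif2b3, Eif2b5, Eif4g3 and Eif6 in remission.

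Markers of cycling cells and of B, plasma and T cells moved with the same groups. Whether the cycling cells were macrophages was not examined. Cycling cell genes (13 of 15 measured) rose in 8 and fell in 0 members in nephritis and were lower in 12 of 13 in remission. Their mean level ran from 8.37 to 9.31 in prenephritic, 9.20 to 9.61 in nephritic and 8.26 to 8.50 in remission arrays. With that level as a covariate, 1 initiation factor gene was called higher in nephritis (Eif6, 0.52, adjusted p = 0.040), where 161 of all 15780 genes were. In remission 0 members were called lower, where 6 of all genes were. The members' median in remission minus nephritic arrays was then −0.19, against −0.13 without the covariate, with 13 members above 0 against 5. B cell and plasma cell genes (7 of 10 measured) rose in 6 of 7 in nephritis and were lower in 4 of 7 in remission, with mean levels of 6.81 to 8.35, 8.05 to 9.32 and 7.54 to 7.62. With that level as a covariate 1 member was higher in nephritis (Eif2b3, 0.47, with an adjusted p just under the threshold), where 111 of all genes were. In remission 2 members were lower (Eif2b3 and Eif4ebp1), where 555 of all genes were, with a member median of −0.19 in remission minus nephritic arrays. T cell genes (5 of 7 measured) rose in 3 of 5 and were lower in 4 of 5, with mean levels of 5.24 to 5.80, 5.69 to 6.39 and 5.23 to 5.48. Cycling and B and plasma cell levels did not overlap between nephritic and remission arrays, and overlapped only in part between prenephritic and nephritic arrays. These fits therefore cannot tell the part of these cells from that of the group. No other test of it was made, and the part of T cells was not tested.

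Kidney tubule genes (24 of 26 measured) were called in 0 in nephritis and higher in 3 of 24 in remission than in nephritis (Gatm, Calb1 and Pvalb). All 24 lay above 0 in remission minus nephritic arrays, with a median of 1.18 and 16 at an unadjusted p below 0.05, and all 24 above 0 in remission minus prenephritic arrays, with a median of 0.87. The list had mean levels of 8.73 to 10.47, 7.55 to 10.30 and 9.64 to 11.06 in prenephritic, nephritic and remission arrays. With that level as a covariate 4 members were lower in remission, against 12, and 821 of all genes were, against 1584. Without the 3 arrays at its extremes (nephritic replicate 3 and remission replicates 1 and 2), which leaves 2 remission arrays, 0 members were called lower in remission, with Eif6 at −0.35 (adjusted p = 0.12), and 5 were called higher in nephritis. The mean levels of neutrophil, endothelial and fibroblast or mesangial genes overlapped between all groups. Of these lists, Pecam1, an adhesion molecule gene on the endothelial list, rose in nephritis by 1.84 ± 0.20 and was 2.05 ± 0.22 lower in remission, without overlap between the groups. The other 5 endothelial genes lay above 0 in remission minus nephritic arrays, and the median of the list was 0.46. Pdgfrb, on the fibroblast and mesangial list, was 0.63 ± 0.20 lower in remission (adjusted p = 0.045). The part of these lists in the result was not tested.

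**Figure D5:**
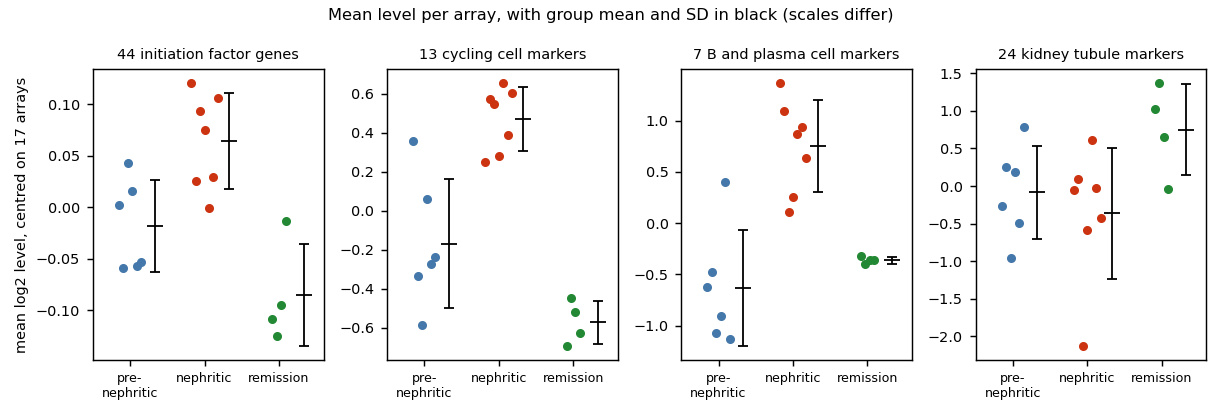
Mean log2 level per array, centred on the 17 arrays, of the 44 initiation factor genes and of the markers of cycling cells, B and plasma cells and kidney tubule, with group mean and SD in black; the vertical scales differ. Cycling and B or plasma cell markers are high in nephritic arrays and tubule markers high in 3 of the 4 remission arrays.

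Between remission and prenephritic arrays, 0 of the 44 members were called by limma (0.00634% of all genes, 1 gene, was), and 5 had an unadjusted p below 0.05. Without prenephritic replicate 6, 28 of all genes were called higher and 171 lower, and 1 member, Eif2b2, was called lower (−0.44, adjusted p = 0.047). The largest differences were those of Eif2b2 (−0.38 ± 0.11, adjusted p = 0.17), Eif2ak4 (−0.32 ± 0.11) and Eif2s2 (0.21 ± 0.08, adjusted p = 0.22). For the 4 called genes with the largest rises in nephritis, the 95% intervals of remission minus prenephritic ran from −0.23 to 0.13 for Eif6, from −0.12 to 0.18 for Eif2b3, from 0.04 to 0.38 for Eif2s2 (adjusted p = 0.22) and from −0.33 to 0.05 for Eif4g3. The median member stood at −0.07, against −0.05 for all genes. This comparison shares its arrays with both others.

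Genes that work with the initiation factors were read from fixed lists, of which 56 genes were measured. In nephritis 4 of 56 rose and 3 fell (7.14% and 5.36%, against 6.74% and 5.32% of all genes), and in remission minus nephritic arrays 2 rose and 6 fell (3.57% and 10.7%, against 3.27% and 10.0%), shares near those of all genes. The median partner stood at −0.03 and −0.06. Of the 12 elongation and termination genes, Gspt1, the gene of the release factor eRF3a, rose in nephritis by 0.25 ± 0.05 (adjusted p = 0.0040) and was lower by 0.37 ± 0.06 in remission (adjusted p = 0.00062), while its paralog Gspt2 fell by 0.71 ± 0.16 in nephritis (adjusted p = 0.0091). Eefsec, the selenocysteine elongation factor gene, was lower in remission by 0.34 ± 0.09 (adjusted p = 0.021, and 0.079 without remission replicate 1).

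In the mTORC1 arm (11 measured), Rheb, the GTPase gene that activates the kinase, rose by 0.20 ± 0.05 in nephritis (adjusted p = 0.014). Deptor, an inhibitor of mTOR, was higher in remission by 0.62 ± 0.15 (adjusted p = 0.013, and 0.066 without remission replicate 2) and stood at −0.40 ± 0.13 in nephritis (adjusted p = 0.063), and Mlst8, a subunit gene, was lower in remission by 0.31 ± 0.09 (adjusted p = 0.039), a call that ended on removal of nephritic replicate 2, 3, 4 or 7 or any remission array (0.058 to 0.12). Among the cap and poly(A) partners (9 measured), Mknk1, the gene of a kinase that phosphorylates eIF4E, fell by 0.38 ± 0.11 in nephritis (adjusted p = 0.027, and 0.051 to 0.067 on removal of prenephritic replicate 3 or nephritic replicate 1, 5 or 6), and Mknk2, its paralog, was lower in remission by 0.34 ± 0.11 (adjusted p = 0.044). The Mknk2 call ended on removal of prenephritic replicate 3 or 4, any nephritic array but replicate 2, or remission replicate 1, 2 or 3 (0.052 to 0.15). Of the start site and recycling genes (11 measured), Bzw1, which encodes an eIF5 mimic, rose by 0.27 ± 0.09 in nephritis (adjusted p = 0.046), a call that withstood removal only of prenephritic replicate 1 or 4 or nephritic replicate 3 and was otherwise at 0.051 to 0.11. Mcts2, the gene of a re-initiation factor, was higher in remission by 0.85 ± 0.20 (adjusted p = 0.0097, and 0.051 without remission replicate 2).

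The eIF2 arm of the integrated stress response (13 measured) had the largest partner difference. Asns, the asparagine synthetase gene, a target of ATF4, rose by 1.52 ± 0.21 (adjusted p = 0.00017) and was 1.54 ± 0.23 lower in remission (adjusted p = 0.00051). With the cycling covariate these differences were 0.99 and −0.68 (adjusted p = 0.13 and 0.50), and with the B and plasma cell covariate 1.23 and −1.30 (adjusted p = 0.13 and 0.044). Trib3, another ATF4 target, fell by 0.50 ± 0.13 in nephritis (adjusted p = 0.016), and Atf5 was lower in remission by 0.63 ± 0.17 (adjusted p = 0.021, and 0.064 to 0.087 on removal of remission replicate 2 or 3). The calls of Asns, Trib3, Gspt1, Gspt2 and Rheb passed whichever array was left out. With the cycling covariate those of Trib3, Gspt1 and Rheb were lost, and with the B and plasma cell covariate those of Trib3, Gspt2 and Rheb and the nephritic call of Gspt1 (0.077 to 0.39 as adjusted p). The other 11 of the 13 genes, Atf4 and Ddit3 among them, were not called in nephritis.

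Promoters were searched because most members lay above 0 in nephritis and below 0 in remission minus nephritic arrays. Whether members share a regulator was not tested. The search covered the 250 bases before each RefSeq start (GRCm38.p6), which were available for 34 of the 44 members. The letters CACGTG, the E-box read by MYC and related factors, lay in the windows of 8 of the 34 (23.5%), against 6.86% of all genes with a window and 7.61% of protein-coding genes. These 8 (Eif1b, Eif3f, Eif3k, Eif4a1, Eif4e, Eif4h, Eif5a and Eif5a2) included 0 of the 11 members with a window that were called in nephritis or remission. CCGGAAGT, an ETS factor site searched on both strands, lay in 5 of 34 windows (14.7%, against 3.23% of all and 4.26% of protein-coding genes), among them those of the called genes Eif3l and Eif4e2. GCCATNTT, a YY1 site, lay in 4 of 34 (11.8%, against 4.49%), among them that of the called gene Eif2s2. TGATGNAA, the core of the element bound by ATF4 with C/EBP proteins, lay in 0 of 34 (against 3.91%). A gene counted as holding a motif when any of its windows did, and matches are letters only.

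The 100 bases before the start are shown for 2 E-box genes that were not called and for the called genes with an ETS match, each on its own strand with the match in capitals. They lie at chr3:138527168-138527267 (plus strand, Eif4e), chr5:134639410-134639509 (minus strand, Eif4h), chr15:79075123-79075222 (plus strand, Eif3l) and chr1:87213839-87213938 (plus strand, Eif4e2).
Eif4e: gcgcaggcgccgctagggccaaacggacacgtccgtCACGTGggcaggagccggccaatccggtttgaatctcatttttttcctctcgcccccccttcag
Eif4h: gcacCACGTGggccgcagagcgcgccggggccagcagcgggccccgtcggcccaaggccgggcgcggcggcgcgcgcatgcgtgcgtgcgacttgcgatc
Eif3l: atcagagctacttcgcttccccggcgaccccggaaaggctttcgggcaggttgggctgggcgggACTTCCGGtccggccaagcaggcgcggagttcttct
Eif4e2: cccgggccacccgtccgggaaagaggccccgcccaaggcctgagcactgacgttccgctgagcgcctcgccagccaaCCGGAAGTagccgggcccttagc
The matches begin 64 bases before the start in Eif4e, 96 in Eif4h, 36 in Eif3l and 23 in Eif4e2. Eif4e and Eif4e2 also had windows before other starts, which held no match. In Eif3l the letters stand as the reverse complement, ACTTCCGG. Eif4e, flat across the groups, holds another CACGTG that begins 228 bases before the same start.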

How the data were processed

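RNA of 17 samples, 1 array each, was measured on an Affymetrix platform. The deposited values are log2 expression, normalized by the authors with RMA per the submitters' processing notes. No version is named, and the probe definition was not among the sources used here. RMA makes the arrays' distributions alike, so a change in total RNA per cell does not show. Of 16539 probe sets, 15780 had 1 symbol and were tested, 64 were controls and 695 had no symbol. Groups and replicate numbers come from the titles.

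limma 3.58.1 in R 4.3.3 fitted 1 mean per group to all 17 arrays (14 residual degrees of freedom), with Benjamini-Hochberg adjustment over the 15780 genes, and was checked on simulated data. Cell marker levels are means of log2 values. The members and all lists were chosen with earlier results of these data known, so counts over them are descriptions. Any member may be named; called members are given in full and array values for up to 16 of the members, first the called ones and paralog sets, although ranges are printed for more. Partners are named where called, up to 8 per comparison by smallest p. Of 32 alternatives, 4 (a B and plasma cell covariate and 3 sets of arrays left out) were chosen after seeing the data. The number of arrays limits the precision.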

Additional observations from a re-analysis of the deposited data

Results flagged for a closer look

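In 9 of 132 groups of array values (44 genes in 3 groups), 1 array stood apart from the others of its group by Dixon's ratio at the 95% level. Chance alone gives about 1 in 20. Among prenephritic arrays, replicate 4 had the lowest Eif2b1 value (8.22, the others from 8.63 to 8.78) and replicate 5 the lowest Eif4e2 value (9.18, the others from 9.36 to 9.45). Among nephritic arrays, replicate 4 was lowest in Eif3a (10.56, the others from 10.88 to 11.04), replicate 1 highest in Eif3b (10.46, the others from 10.10 to 10.21), replicate 2 lowest in Eif3h (12.87, the others from 13.09 to 13.26) and replicate 6 highest in Eif5 (11.55, the others from 11.08 to 11.26). Among remission arrays, replicate 1 was lowest in Eif1ad (8.85, the others from 9.17 to 9.22), replicate 3 lowest in Eif2ak4 (9.10, the others from 9.37 to 9.39) and replicate 4 highest in Eif2b2 (8.73, the others from 8.47 to 8.49).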

How the results depend on the processing

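The median member lay above 0 in nephritis and below 0 in both remission comparisons under every alternative run, from 0.04 to 0.13, from −0.19 to −0.10 and from −0.10 to −0.03. Leaving out 1 array at a time gave 4 to 9 members higher and 0 to 2 lower in nephritis, 4 to 14 lower in remission than in nephritis, and 0 to 1 lower in remission than before nephritis. The 1 member lower in nephritis became 2 with dim genes left out, with the quantile normalization repeated, with a trended and robust variance prior, with the tubule covariate and when the 3 arrays with extreme tubule levels were dropped. It became 0 with array medians subtracted, with the cycling or the B and plasma cell covariate, and without prenephritic replicate 5 together with nephritic replicate 1 or 6. The 7 members higher in nephritis became 4 without either of those pairs of arrays, and 1 with the cycling or the B and plasma cell covariate. The 12 members lower in remission became 5 with array medians subtracted, 4 with the tubule covariate, 2 with the B and plasma cell covariate and 0 with the cycling covariate or without the 3 tubule extremes. Requiring 1.5-fold left 0 members in any direction, since no member differed by that much. Array weights gave 1 member lower in remission than before nephritis. The causes of these shifts were not tested.

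Deviations from the group means correlated at 0.17 on average between same-numbered arrays of different groups (−0.26 to 0.80 over 14 pairs, 8 above 0.1), against −0.03 between arrays of other numbers (80 pairs, 25 above 0.1). Since not every pair was above 0.1 and no label ties the numbers to a shared source, they were not taken to pair the arrays. With the replicate block, 0 members were lower in nephritis and 1, Eif2b2, was lower in remission than before nephritis, and the count of all genes called there went from 0 higher and 1 lower to 234 and 244. Eif3a turned from −0.16 to 0.023 in remission minus nephritic arrays with the cycling covariate. Of 1504 single-gene values under alternatives, 1150 kept direction and side of the threshold, 309 dropped out, 44 came in and 1 reversed. The values covered 47 pairs of a gene and a comparison, those of members called under any setting and partners called in the main fit. The 100 member comparisons never called were not counted, and pairs not called in the main fit could not drop out.

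Over all genes, the counts higher and lower in nephritis were 1064 and 840, and became 888 and 537 with array medians subtracted, 1416 and 1590 with the tubule covariate, 161 and 59 with the cycling covariate, 111 and 46 with the B and plasma cell covariate, 434 and 296 at 1.5-fold, and 722 and 472 or 759 and 477 without the pairs of arrays. In remission minus nephritic arrays, 516 and 1584 became 1239 and 2385 with array weights, 1064 and 1823 with the block, 478 and 821 with the tubule covariate, 0 and 6 with the cycling covariate, 108 and 555 with the B and plasma cell covariate, 261 and 696 at 1.5-fold and 48 and 233 without the tubule extremes. With array weights, 69 and 289 genes were called in remission minus prenephritic arrays. Leaving out remission replicate 2 gave 182 and 839 in remission minus nephritic arrays and leaving out remission replicate 4 gave 981 and 1940. Array number and spread limit what could be called.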
